A study of Mus musculus with 24 samples.

Results

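The genes described here are 10 heat shock genes, namely Hspa1a, Hspa1b, Hsph1, Dnajb1, Hsp90aa1, Hsp90ab1, Hspa8, Hspe1, Hspd1 and Hspa5, out of 54235 features in the deposited matrices. They were taken by symbol as a readout of stress in dissociated brain cells. The set was chosen by values measured in these same data. These were the raw unique molecular identifiers (UMIs, which count captured RNA molecules) of the genes per cell type and mouse pool, with oligodendrocyte precursors by training stage. Levels across cell types and differences between regions are therefore given as descriptions. The same holds for the stage differences of these genes in oligodendrocyte precursors, Hspa1a in striatum among them. All 10 genes were detected, and together they held 2893581 UMIs, or 0.672% of the UMIs of the 98612 cells kept.

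Single cells were profiled by droplet 3′ sequencing in 24 libraries. The matrices of 23 were used, and for the first striatal control pool only the left side, since its right-side library was not analysed here. Motor cortex came from mice carrying Fos-CreER and the Ai9 reporter, and dorsal striatum from mice carrying Arc-CreER and Ai9, so the region and the driver line cannot be told apart. All groups, controls included, received 4-hydroxytamoxifen (4-OHT), the drug that activates the recombinase, and tissue was taken 3 days after it. Control mice were untrained, early mice had 2 days of training in a forelimb reaching task, and late mice had 8 days. The labels give neither age nor strain background. Each pool held 2 mice, marked male and female, and each region had 2 pools per stage, so n = 2 per group and n = 6 per region. Hemispheres were separate libraries, contralateral or ipsilateral to the trained limb in trained mice and left or right in controls. The tissue was digested with warm papain and dead cells were removed before loading. P-values rest on the spread between these pools as fitted in each test, which can be smaller than the spread of the pool values listed.

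Library totals ran from 5260446 to 30470621 UMIs, with medians of 2048 to 5725 UMIs per cell passing the filters. Barcodes shared between libraries split the 12 pools into 2 classes, called A and B: replicate 1 of control and late in both regions was A, and the other 8 pools were B. Pairs of libraries shared 1.34 barcodes per 1000000 possible pairs within A, 0.263 within B and 0.0236 between A and B. The labels name more than one kit version without assigning it, so the classes are read from the data, and no early pool was in class A. Median mitochondrial percentages were 1.15 to 1.63 in A and 1.83 to 3.84 in B. Motor cortex control replicate 1 stood apart: its left library had 541 barcodes, and its Xist level was 0.219 CPM (UMIs per 1000000 UMIs), against 335 to 682 CPM in the other cortical pools and 696 to 861 CPM in striatal pools, which goes against its label of mixed sex.

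Heat shock proteins are chaperones that keep other proteins folded. When proteins misfold, heat shock factor 1 is released, binds repeats of the sequence nGAAn upstream of its targets and turns on genes such as Hspa1a and Hspa1b within minutes, whereas Hspa8, its constitutive relative, is made all the time. Dnajb1 and Hsph1 help HSP70 proteins take up substrate and exchange nucleotide, Hsp90aa1 and Hsp90ab1 are the cytosolic HSP90s, Hspd1 and Hspe1 form the mitochondrial chaperonin and Hspa5 (BiP) serves the endoplasmic reticulum. Enzymatic digestion of tissue can itself induce some of these genes together with immediate early genes such as Fos.

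Hspa1a (minus strand of chromosome 17, 34969190 to 34972156 in GRCm38) and Hspa1b (17, 34956436 to 34959238) are neighbouring protein-coding genes, 9951 bases apart. Their upstream sequences are shown because the levels of the genes followed each other and the stretches are nearly the same: 247 of 250 bases (98.8%) were identical. The RefSeq windows of assembly GRCm38.p6 cover chr17:34972157-34972406 for Hspa1a and chr17:34959239-34959488 for Hspa1b, both on the minus strand, with the match to GAANNTTC in capitals, 104 bases before each annotated start.
Hspa1a: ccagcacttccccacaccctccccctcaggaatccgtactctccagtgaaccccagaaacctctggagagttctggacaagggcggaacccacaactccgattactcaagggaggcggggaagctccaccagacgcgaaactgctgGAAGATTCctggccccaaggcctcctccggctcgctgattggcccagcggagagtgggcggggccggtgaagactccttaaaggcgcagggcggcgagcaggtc
Hspa1b: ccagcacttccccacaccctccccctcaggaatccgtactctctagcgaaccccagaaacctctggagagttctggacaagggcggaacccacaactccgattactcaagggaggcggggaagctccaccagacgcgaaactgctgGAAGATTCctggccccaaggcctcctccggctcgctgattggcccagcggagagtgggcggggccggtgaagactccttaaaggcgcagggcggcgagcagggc
Counting from 1 at the 5′ end, the windows differed by C44T, T47C and T249G, with the base of Hspa1a first. A pair of inverted nGAAn units can be arranged as GAANNTTC or as TTCNNGAA, each of which reads the same on both strands, and both were searched. Of 32851 RefSeq promoter windows of 250 bases, 6.69% held GAANNTTC, 7.17% held TTCNNGAA and 12.8% held either, so a match is common. The transcripts also shared sequence: 1419 windows of 90 bases were common to both, 49.3% of those in Hspa1a and 52.3% in Hspa1b, but 0 of 411 windows in the last 500 bases, the end that 3′ libraries read, were shared.

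The other members lie apart in GRCm38: Hsp90ab1 also on chromosome 17 (45567775 to 45573271), Hsph1 on 5 (149614287 to 149636376), Dnajb1 on 8 (83608193 to 83612653), Hsp90aa1 on 12 (110690605 to 110702728), Hspa8 on 9 (40800984 to 40810087) and Hspa5 on 2 (34771970 to 34777547). Hspe1 (1, 55088132 to 55091307) and Hspd1 (1, 55077835 to 55088243) are neighbours, and all 10 genes are annotated as protein-coding.

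Shorter stretches are shown for Hsph1, whose window holds the TTCNNGAA arrangement, for Hspe1, which holds both, and for Hspa5, which holds a different element. Distances are from the start of the RefSeq entry, which can lie inside the gene model given above. The Hsph1 stretch is chr5:149636351-149636380 on the minus strand, with TTCNNGAA in capitals, 33 bases before the start of one RefSeq entry and 54 before the other, and it overlaps an annotated exon of the gene model. The Hspe1 stretch is chr1:55088053-55088082 on the plus strand, with 3 overlapping matches merged in capitals (TTCNNGAA 89 bases, GAANNTTC 84 bases and TTCNNGAA 79 bases before the start), and it lies before Hspe1, over an annotated exon of its neighbour Hspd1. The Hspa5 stretch is chr2:34772020-34772049 on the plus strand, with the endoplasmic reticulum stress element (CCAAT, then any 9 bases, then CCACG) in capitals, 65 bases before the start of the RefSeq entry and overlapping an annotated exon of the gene model.
Hsph1: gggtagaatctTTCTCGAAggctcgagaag
Hspe1: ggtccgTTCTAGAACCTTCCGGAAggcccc
Hspa5: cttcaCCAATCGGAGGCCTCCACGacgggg
A longer form with 1 more unit (GAANNTTC, then any 2 bases and GAA, or TTCNNGAA, then any 2 bases and TTC) was found in the Hspe1 window and in 0.466% of all windows, and the Hspa5 element in 0.113%. Hspd1 and Hspe1 overlap by 112 bases on opposite strands of chromosome 1. Of the 2 RefSeq windows of Hspd1, 1 also held this stretch, which lies inside the Hspd1 gene model. The other, next to the start of that gene model, held none of these matches. The overlap lies at the start of transcription of both gene models, away from the end that these libraries read. Whether the counting used strand is not given in the sources used here, so reads in the overlap cannot be assigned with certainty. The Dnajb1 window held none of these letters, and Hsp90aa1, Hsp90ab1 and Hspa8 had no entry.

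Cells were clustered without the 10 genes, without the other stress genes listed and without immediate early genes, and classes were named by marker genes, so each class name is to be read as "-like". Levels are the mean over the 6 pools of a region of log2 CPM of the summed UMIs, with the standard deviation (SD), for 11 cortical and 12 striatal classes. Classes with fewer than 20 cells in any pool of a region, pericyte-like cells of the striatum among them, have no pool values. The heat map of levels shows the 23 class and region combinations.

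**Figure D1:**
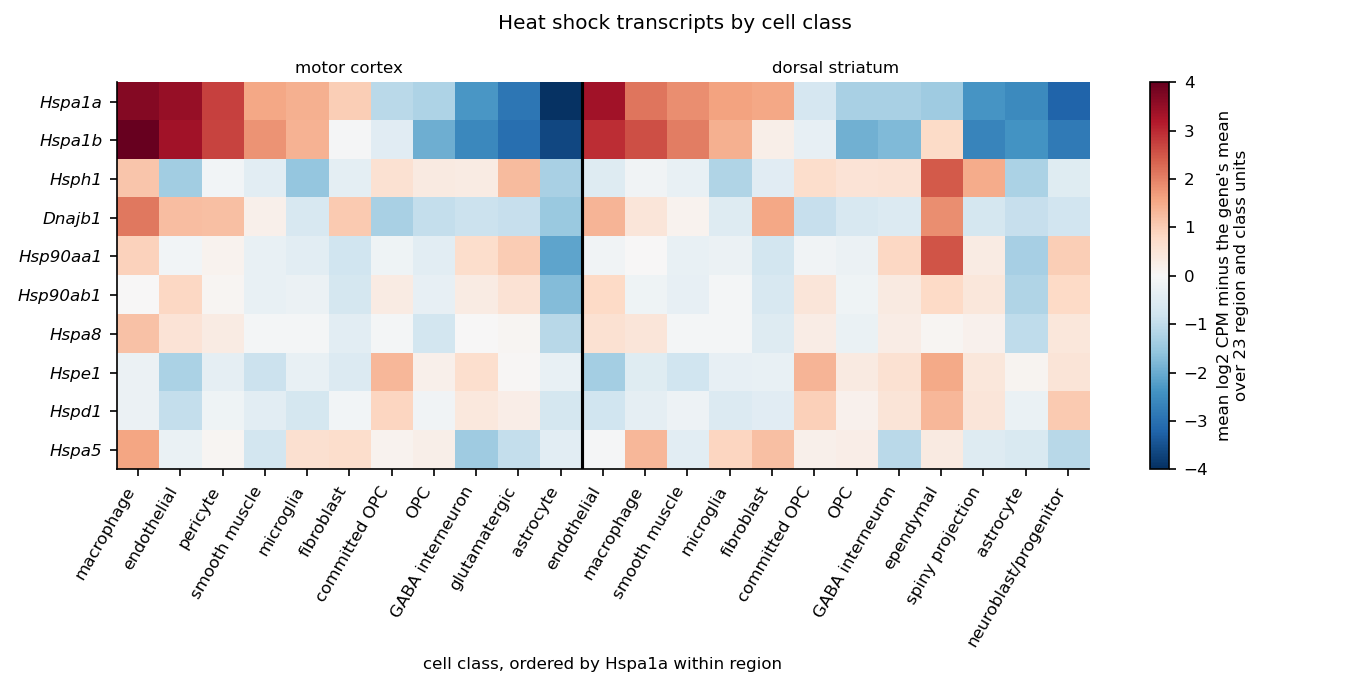
Mean log2 CPM of each of the 10 genes (rows) in each class of motor cortex and dorsal striatum (columns), less the gene's own mean over the 23 columns. Hspa1a and Hspa1b are high in macrophage-like, endothelial-like, mural and microglia-like cells and low in neurons and astrocyte-like cells, whereas Hspe1 and Hspd1 are low in endothelial-like cells.

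Hspa1a, the stress-inducible HSP70, was highest in cortical macrophage-like cells at 11.98 ± 0.57 log2 CPM, followed by endothelial-like (11.80 ± 0.71), pericyte-like (11.05 ± 1.33), smooth muscle-like (9.85 ± 1.07), microglia-like (9.73 ± 1.05) and fibroblast-like cells (9.30 ± 0.67). Committed precursors (7.23 ± 1.34) and oligodendrocyte precursors (OPCs, 7.09 ± 0.51) came next in cortex, then GABAergic interneurons (5.97 ± 0.75), glutamatergic neurons (5.41 ± 0.53) and astrocytes (4.35 ± 0.67). Of the 10 steps in that order, 3 were larger than the SDs on either side: below fibroblast-like cells, below OPCs and below glutamatergic neurons. Neighbours elsewhere in the order, the macrophage-like and endothelial-like pair included, did not differ beyond their spread.

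Among striatal classes with pool values Hspa1a was highest in endothelial-like cells at 11.66 ± 0.43 log2 CPM (3715 CPM summed over pools, against 4367 in pericyte-like cells, which have no pool values), then macrophage-like (10.46 ± 0.86), smooth muscle-like (10.16 ± 0.71), microglia-like (9.91 ± 0.54) and fibroblast-like cells (9.86 ± 0.45). OPC-like cells (7.01 ± 0.63), GABAergic interneurons (7.01 ± 0.60) and ependymal-like cells (6.89 ± 0.55) lay together below committed precursors (7.63 ± 1.22), above spiny projection neurons (5.95 ± 0.81), astrocytes (5.77 ± 0.88) and neuroblasts or progenitors (5.10 ± 0.53). Again 3 steps (of 11) exceeded the spread. Endothelial-like pools had 2221, 3756, 3401, 4093, 2266 and 4393 CPM of Hspa1a in striatum (control 1 and 2, early 1 and 2, late 1 and 2, the order kept below). The cortical endothelial-like pools had 2169, 6068, 4838, 2561, 2182 and 5795 CPM. In both regions the class A pools, control 1 and late 1, were the lowest of the 6.

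Hspa1b, the neighbouring inducible copy, ran over 7.99 log2 units between its highest and lowest cortical class and over 5.77 in striatum, the widest of the 10 genes in cortex and second to Hspa1a (6.56) in striatum. Its highest level was 9.94 ± 1.35 log2 CPM in cortical macrophage-like cells, and its lowest 1.95 ± 0.88 in cortical astrocytes. The cortical astrocyte libraries held 0 to 3 UMIs of Hspa1b each, so this low end, and with it the cortical range, depends on the added count. Over the 23 class and region combinations, the mean levels of Hspa1a and Hspa1b had a Pearson correlation of 0.957. These points share pools, kits and dissociations, and the value is a description.

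The cochaperones spread less over the classes. Dnajb1, a J protein that activates HSP70, was highest in cortical macrophage-like cells (9.13 ± 0.62 log2 CPM) and in striatal ependymal-like cells (8.89 ± 0.47), and lowest in astrocytes of both regions (5.55 ± 0.42 and 6.10 ± 0.56). Hsph1, the HSP110 exchange factor, was highest in cortical glutamatergic neurons (8.26 ± 0.40) and in striatal ependymal-like cells (9.44 ± 0.54), and lowest in cortical microglia-like cells (5.46 ± 0.91) and striatal astrocytes (5.72 ± 0.69). Within the spread of the highest class lay cortical macrophage-like cells for Hsph1 (8.09 ± 0.93) and striatal fibroblast-like cells for Dnajb1 (8.57 ± 0.51). The lowest classes of both genes also lay within the spread of the next. Over the 23 points the correlation with Hspa1a was 0.733 for Dnajb1 and -0.266 for Hsph1.

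Hsp90aa1, the inducible HSP90, was highest in ependymal-like cells at 12.39 ± 0.74 log2 CPM and in cortical glutamatergic neurons at 10.88 ± 0.21, and lowest in astrocytes (7.76 ± 0.39 in cortex, 8.53 ± 0.24 in striatum). The ependymal-like pools had 3024, 7048, 8012, 7017, 2563 and 7784 CPM, with the class A pools again lowest and no overlap with the rest. Hsp90ab1, the constitutive HSP90, was highest in endothelial-like cells (11.68 ± 0.30 and 11.66 ± 0.29 in cortex and striatum) and lowest in astrocytes (9.12 ± 0.24 and 9.63 ± 0.19). Within the spread of that highest level lay cortical glutamatergic neurons (11.42 ± 0.20), striatal ependymal-like cells (11.66 ± 0.36) and neuroblasts or progenitors (11.64 ± 0.14). For Hsp90aa1, cortical macrophage-like cells (10.78 ± 0.53) lay within the spread of glutamatergic neurons. Hspa8, the constitutive HSP70, ranged over only 2.27 log2 units in cortex and 1.62 in striatum, from 11.03 ± 0.16 in cortical macrophage-like cells to 8.76 ± 0.34 in cortical astrocytes.

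Hspe1 and Hspd1, the 2 parts of the mitochondrial chaperonin, were highest in committed precursors in cortex (9.62 ± 0.34 and 8.02 ± 0.71 log2 CPM) and in ependymal-like cells in striatum (9.82 ± 0.16 and 8.48 ± 0.55). Both were lowest in endothelial-like cells, at 7.04 ± 0.47 and 6.20 ± 0.40 in cortex and 6.95 ± 0.51 and 6.37 ± 0.37 in striatum, the class where Hspa1a was at or near its highest. Hspe1 and Hspd1 had a correlation of 0.896 over the 23 points, against -0.646 for Hspa1a and Hspe1. No step in the Hspd1 order exceeded the spread in either region, and the same held for Hspa5. For Hspe1, striatal committed precursors (9.65 ± 0.18) lay within the spread of ependymal-like cells. Cortical smooth muscle-like cells (7.44 ± 0.31) lay within that of endothelial-like cells. Hspa5, the chaperone of the endoplasmic reticulum, was highest in macrophage-like cells (10.91 ± 0.44 and 10.66 ± 0.35) and lowest in cortical GABAergic interneurons (7.92 ± 0.87) and striatal neuroblasts or progenitors (8.23 ± 0.50).

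Summed over the 10 genes, the share of all UMIs was 1.48 ± 0.448% in cortical macrophage-like cells, 1.39 ± 0.447% in ependymal-like cells and 1.14 ± 0.306% in cortical endothelial-like cells. It was 0.220 ± 0.0320% in cortical astrocytes and 0.276 ± 0.0236% in striatal astrocytes, the lowest class of each region. Among classes without pool values, Hspa1a stood at 4367 CPM in striatal pericyte-like cells (exact Poisson 95% interval 4268 to 4468, 1108 cells) and mature oligodendrocytes had 336 CPM of Hspa1a in cortex (303 to 372, 202 cells) and 184 CPM in striatum (150 to 223, 173 cells), intervals that cover counting error only.

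Hspa1a was spread over cells differently in these classes. With every cell thinned to 1000 UMIs, a UMI of Hspa1a was found in 69.2 ± 10.3% of cortical and 67.7 ± 8.47% of striatal endothelial-like cells, and in 61.8 ± 4.75% and 35.8 ± 12.8% of macrophage-like cells. The share was 19.1 ± 5.50% and 21.4 ± 3.28% in microglia-like cells, 7.85 ± 2.35% and 8.53 ± 2.51% in OPC-like cells, 1.80 ± 0.435% and 2.52 ± 0.926% in astrocytes and 1.69 ± 0.562% in neuroblasts or progenitors. Without thinning the shares were 74.4 and 73.6% in endothelial-like cells, 24.2 and 27.2% in microglia-like cells, 11.5 and 12.7% in OPC-like cells and 2.87 and 4.16% in astrocytes. Median depths were 1593 and 1526 UMIs in endothelial-like cells and 1695 and 1912 in astrocytes. No class is known to lack Hspa1a, so the lowest shares, 1.69% in neuroblasts or progenitors and 1.80% in cortical astrocytes, are upper limits on what free RNA gives in those cells, and Hspa1a in these cells cannot be told apart from background. The 5% of cells with the most Hspa1a held 24.8% of its UMIs in cortical endothelial-like cells, but 69.7% in cortical microglia-like cells and 75.5% in cortical OPC-like cells, where most cells had none. A low level alone raises this share, so it does not separate the level of a class from uneven spread over its cells.

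Among 7444 genes at 4 log2 CPM or more on average, those whose class means followed Hspa1a most closely over the 23 points were Hilpda (0.912), Sh2b3 (0.901), Tgfb1 (0.899), Myo1c (0.892) and Adipor1 (0.891). For Hspd1 they were Stip1 (0.908), a cochaperone that links HSP70 to HSP90, Lyrm2 (0.890), Snrnp25 (0.888), and Cct6a (0.874) and Cct8 (0.864), subunits of the cytosolic chaperonin. For Hspa5 they were Taf6l (0.889), M6pr (0.872), Lman2 (0.870), Lamp2 (0.865) and P2rx4 (0.865).

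The barcode class of a pool moved with most of these genes. Counting gene and class pairs with at least 60 UMIs, all B pools lay above all A pools in 62 of 108 cortical pairs (28.2% of pairs over all genes) and in 73 of 119 striatal pairs (34.4%). The opposite held in 11 (15.5%) and 12 pairs (21.3%). Hspa1b was higher in B in 9 of 9 cortical and 12 of 12 striatal classes, and Hspa5 in 11 of 11 and 11 of 12. In contrast Hspe1 was higher in A in 10 of 11 cortical and 9 of 12 striatal classes, and Dnajb1 was higher in B in 0 of 11 and 1 of 12.

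**Figure D2:**
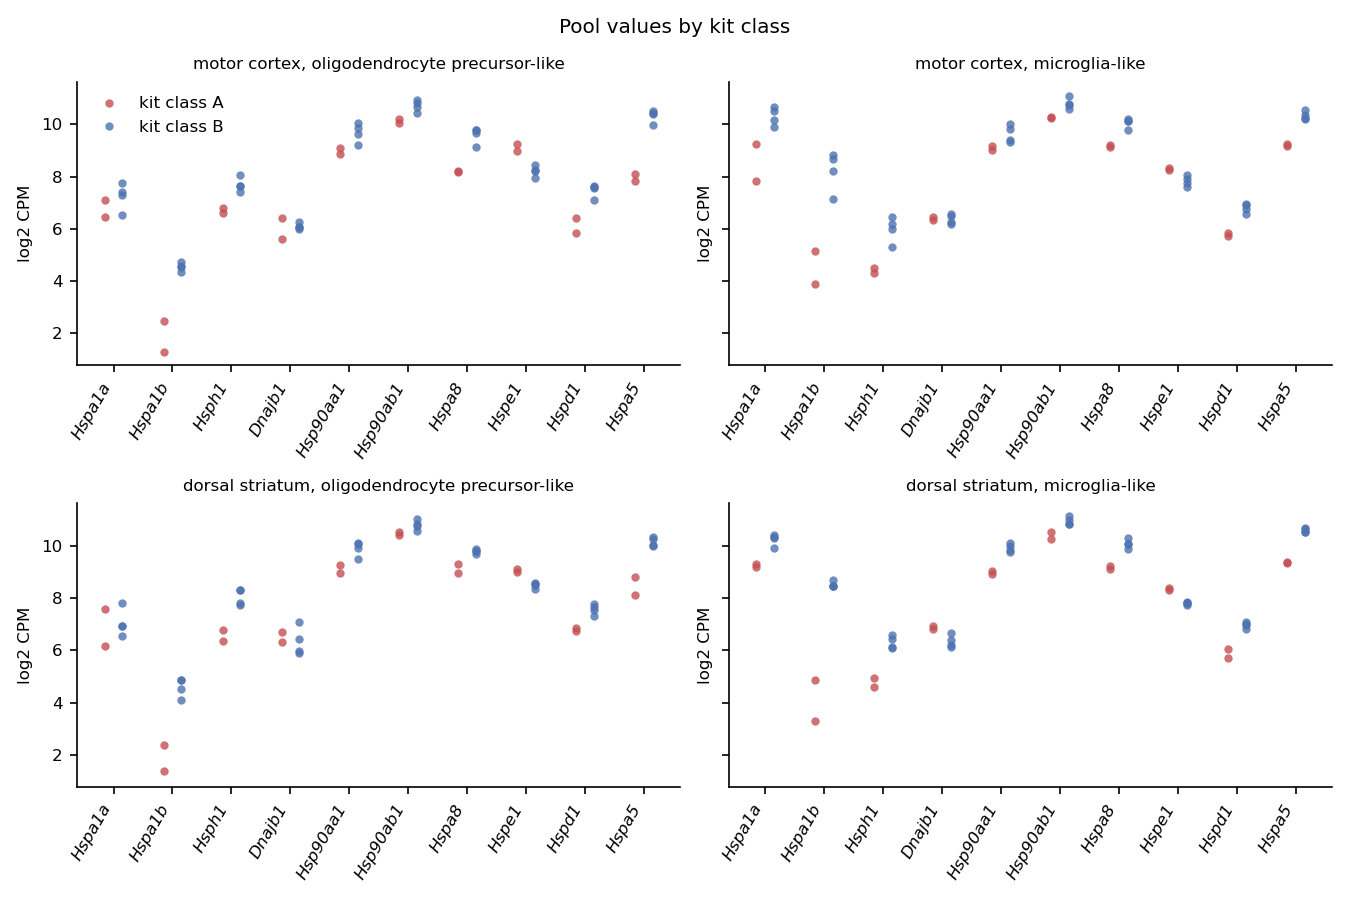
Log2 CPM of the 10 genes in each pool of OPC-like and microglia-like cells of both regions, coloured by the barcode class A or B. In these classes Hspa1b and Hspa5 are lower in the A pools, and Hspe1 is higher.

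The median shift from A to B over classes was 2.67 log2 units for Hspa1b in cortex and 2.98 in striatum, 1.57 and 1.27 for Hspa5, 1.07 and 0.56 for Hspa1a, and 1.00 and 1.22 for Hsph1. It was -0.02 and -0.13 for Dnajb1, and -0.58 and -0.48 for Hspe1. In microglia-like cells, Hspa1b had 14.3, 143, 296, 456, 35.4 and 403 CPM in the cortical pools and 28.4, 355, 353, 414, 8.81 and 349 CPM in the striatal pools. The sequencing chemistry, the flow cell and the date of work cannot be told apart in this split. The class was therefore a term in every comparison of stages and regions, and values within a class are given beside the results.

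The first comparison was between training stages, within each region and class, with edgeR's quasi-likelihood test over all genes and Benjamini-Hochberg adjustment. In cortex 0 of 324 tests of these genes had an adjusted p under 0.05 (0.0125% over all genes). At an unadjusted p under 0.05 there were 44 in cortex, 13.6% of the tests (3.18% over all genes), and DESeq2 called 0. The 14 from control to early and the 22 from control to late were all higher in the trained mice (65.3 and 56.7% of those over all genes), and both comparisons use the same 2 control pools. In striatum 2 of 360 were called (0.0383%), 36, or 10.0%, had an unadjusted p under 0.05 (6.17%), and DESeq2 called 1. Of the 13 from control to early 8 were higher in the trained mice, and of the 14 from control to late 13 were (44.3 and 52.8% over all genes). Both striatal calls were Hspa1a in OPC-like cells, the contrast by which the genes were chosen. The counts at an unadjusted p, in both regions, also include OPC-like cells, whose stage values chose the genes. Their excess over the share of all genes is therefore in part set by that choice.

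Hspa1a in striatal OPC-like cells had 70.0 and 92.6 CPM in the control pools, 122 and 123 CPM in the early pools and 193 and 226 CPM in the late pools, from 54, 82, 119, 158, 112 and 415 UMIs. The 3 stages did not overlap, and the order was the same within class A (70.0 to 193) and within class B (92.6, then 122 and 123, then 226). The class A pair, control 1 and late 1, was also run on 1 flow cell, and so were control 2 (92.6) and early 1 (122). By hemisphere library, control replicate 2 had 55.8 CPM on the left and 114 on the right, late replicate 1 had 130 contralaterally and 272 ipsilaterally, and late replicate 2 had 244 and 206, so libraries of 1 pool could lie further apart than neighbouring stages. The fits that follow use the values that chose the genes, so their p-values and calls are no separate support for a change. The fitted log2 change from control to late was 1.37 (standard error, SE, 0.18, edgeR adjusted p = 2.70e-04), among 0.165% of genes called higher. From early to late it was 0.92 (SE 0.18), with an edgeR adjusted p just inside the threshold, among 0.0367% called higher; this call was lost with DESeq2 (0.93, adjusted p = 1.000), without the barcode class (0.84, edgeR adjusted p = 0.784), with the replicate block in its place (0.84, 0.453), with stricter cell filters (0.79, 0.539), with doublets kept (0.91, 0.339) and without early 1 (0.91, 1.000), early 2 (0.94, 0.959) or late 2 (1.05, 0.136). Of its 3 clusters 2 followed the barcode class: control 1 and late 1 had 435 and 380 cells in one, and 27 and 2 in the other, where control 2 (275 against 6), early 1 (315 against 11), early 2 (486 against 16) and late 2 (670 against 34) had nearly all of theirs. Within the first cluster Hspa1a was at 74.8 CPM in control 1 and 205 in late 1, and within the second at 96.0 in control 2, 128 and 129 in the early pools and 236 in late 2. As the chosen contrast these are descriptions, and the change without the barcode class as a term (1.38) had an edgeR adjusted p of 1.000. The call from control to late was also lost with doublets kept and with the replicate block in place of the barcode class. Leaving out any 1 of the 6 striatal pools gave 3 to 11 calls of 360 tests of the 10 genes (0.133 to 0.744% over all genes), and Hspa1a in these cells lost its call without early replicate 1 (edgeR adjusted p = 0.191) or early replicate 2 (edgeR adjusted p = 0.284).

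**Figure D3:**
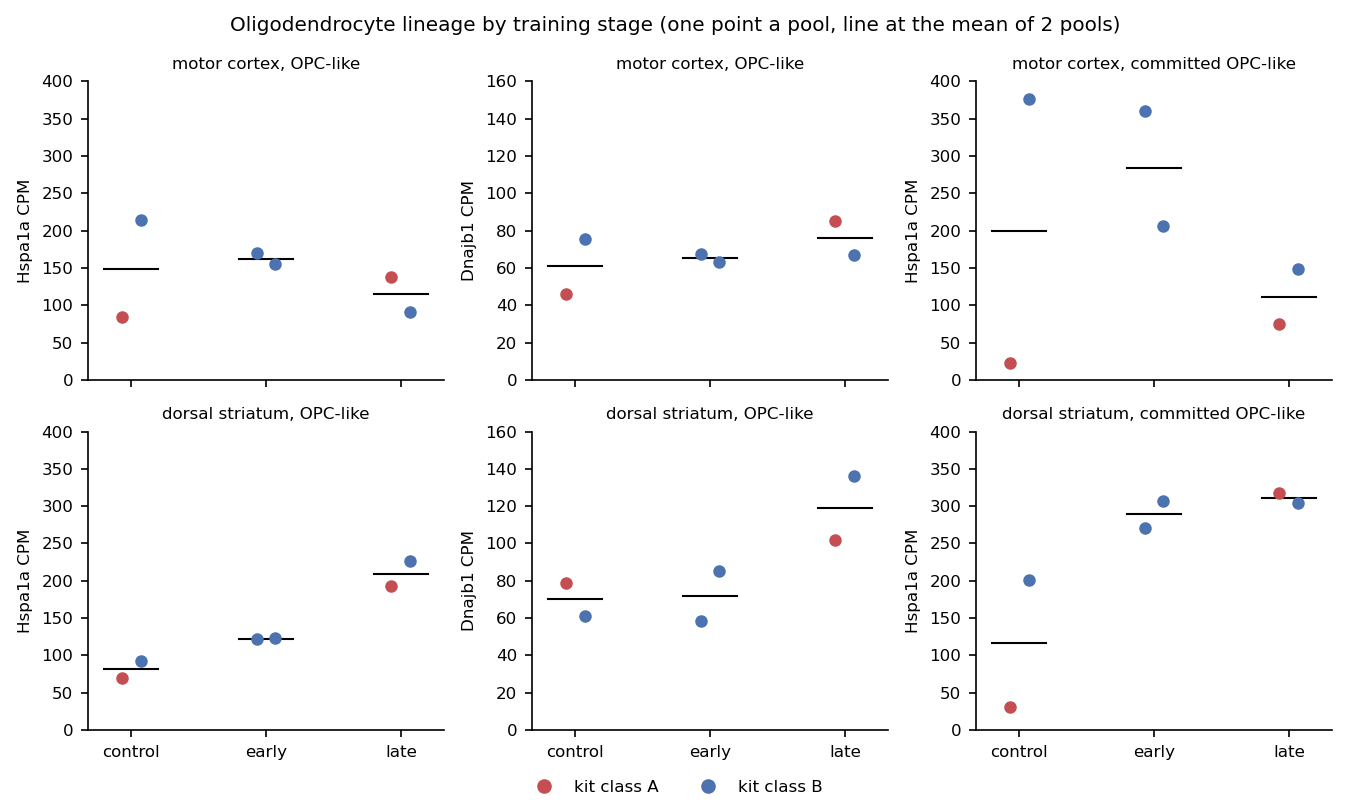
CPM of Hspa1a and Dnajb1 in OPC-like cells and of Hspa1a in committed precursors by stage, with 1 point per pool of 2 mice and a line at the mean of the 2 pools, for each region. In striatum the Hspa1a points of OPC-like cells rise from 70.0 at the lowest control to 226 at the highest late pool without overlap between stages, while in cortex the control pools (84.6 and 214) span the others.

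The other 9 genes did not pass the test in striatal OPC-like cells. Dnajb1 had 79.0 and 61.0 CPM in controls, 58.6 and 85.0 in the early pools and 102 and 136 in the late ones. The late pools were the highest of the 6, at a change of 0.82 from control (SE 0.22, edgeR adjusted p = 0.174). Hsp90aa1 had 499, 720, 1066, 971, 615 and 1120 CPM (0.49, SE 0.15, edgeR adjusted p = 0.295), with late replicate 1 below both early pools. Leaving out control replicate 1 or late replicate 1 gives the same contrast, control 2 against late 2, since the barcode term absorbs the remaining class A pool. In that contrast of 1 pool with 1, the changes were 1.17 for Dnajb1 (without control 1) and 0.65 for Hsp90aa1. The early pools supply its spread and the lone pools are assumed to vary like them. Stage values in these precursors chose the genes, so these are descriptions. Hspa1b, the copy next to Hspa1a, had 1.30, 28.2, 27.8, 16.4, 3.44 and 22.3 CPM and a change of -0.22 (SE 0.44, edgeR adjusted p = 0.961), with control 1 at 1 UMI and late 1 at 2 UMIs.

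Cortical OPC-like cells did not have that order. Hspa1a was at 84.6 and 214 CPM in controls, 170 and 155 in the early pools and 138 and 91.5 in the late ones, a change of -0.32 from control to late (SE 0.34, edgeR adjusted p = 1.000). Within class A it was 84.6 in control and 138 in late; within class B the late pool (91.5) was the lowest. The difference between regions in the change from control to late, tested after the data had been seen, was 1.66 (SE 0.40, edgeR adjusted p = 1.000), and 0 of 270 such differences over the 10 genes, classes and stage pairs passed the test (0.00967% over all genes), with 29 at an unadjusted p under 0.05 (5.23%).

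Committed precursors, the next step toward oligodendrocytes, had 31.2 and 201 CPM of Hspa1a in striatal controls, 271 and 307 in early and 317 and 304 in late pools. The lowest value rested on 6 UMIs in 61 cells. In cortex the values were 23.4, 377, 361, 206, 74.5 and 149 CPM, where the control pools spanned the other stages and the early pools lay above the late ones. Other measures also differed between the striatal OPC-like pools: summed markers of spiny projection neurons were at up to 723 CPM in controls, 422 in the early pools and 1918 in the late ones, those of neuroblasts or progenitors at 497 to 501, 531 to 673 and 677 to 754 CPM, and Snap25 was at 332 CPM in late replicate 1 against 122 to 164 CPM elsewhere. Their part in the Hspa1a difference was not tested.

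In cortex the stage result rested on single pools. Without control replicate 1, the pool whose Xist went against its label, 11 of 327 tests passed (0.258% over all genes), among them Hspa5, Hspa8, Hsp90aa1 and Hspa1b in GABAergic interneurons and Hsph1, Dnajb1, Hspa1b and Hsp90aa1 in macrophage-like cells. Without late replicate 1, 11 of 324 passed (0.327%). The removals are again 1 contrast, control 2 against late 2 or the early pools, since the barcode term absorbs the class A pool that is left. Leaving out the other pools gave 0 to 5 calls (0.0887 to 0.185% over all genes).

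The second comparison set striatum against cortex within the 9 classes present in both, with stage and barcode class as terms. Of 90 tests of these genes 19 were called (10.2% over all genes), 28 had an unadjusted p under 0.05 (19.2%), and all 19 were in astrocytes, GABAergic interneurons and macrophage-like cells. In committed precursors, endothelial-like, fibroblast-like, microglia-like, OPC-like and smooth muscle-like cells 0 of 60 were called (1.31% over all genes in these classes), with 7 at an unadjusted p under 0.05 (9.68%) and 0 called by DESeq2. Here region also stands for the driver line and the mice. The pool values of both regions were among those that chose the genes. The regional p-values and calls, those given by class below included, are therefore no separate support for a difference.

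In astrocytes 7 of the 10 were higher in striatum (12.7% of all genes tested there). Hspa1a had 48.6 CPM in late replicate 1 and 12.4 to 20.8 CPM in the other cortical pools, and 44.9, 44.6, 25.6, 113, 110 and 35.5 CPM in striatal pools, overlapping through late replicate 1 of cortex. The change was 1.36 (SE 0.33, edgeR adjusted p = 0.00277), and cortical pools other than control 2 and late 1 rested on 3 to 8 UMIs. As given above, Hspa1a in cortical astrocytes cannot be told apart from background, and this limit also holds for the change. Hsp90aa1 had 319, 174, 157, 263, 186 and 226 CPM in cortex and 314, 296, 395, 455, 346 and 425 CPM in striatum (0.82, SE 0.17, edgeR adjusted p = 8.27e-04). Hspa1b (2.19), Dnajb1 (0.64), Hsp90ab1 (0.53), Hspd1 (0.50) and Hspe1 (0.44) were the others. The Hspa1b change rested on few UMIs, 0 to 3 in each cortical library. Striatal pools had 0, 19, 21, 32, 0 and 15 UMIs of Hspa1b, with 0 in both class A pools. Without the barcode class as a term the changes of Hspd1 (0.50, edgeR adjusted p = 0.0503), Hsp90ab1 (0.53, 0.0748), Dnajb1 (0.59, 0.176) and Hspe1 (0.45, 0.287) were no longer called. Hspe1 also lost its call without any 1 of 6 single pools (0.38 to 0.43, edgeR adjusted p = 0.0633 to 0.108), Dnajb1 without early replicate 2 of striatum (0.52, 0.0624) or control replicate 2 of cortex (0.50, 0.129), and Hspa1b without that control (1.84, 0.0581). With predicted doublets kept, Hspa1a (0.00, edgeR adjusted p = 0.996) and Hspa1b (-0.01, edgeR adjusted p = 0.990) were no longer called in astrocytes, while Hspe1 (0.35, edgeR adjusted p = 0.148), Hsp90aa1 (0.44, 0.0825) and Hsp90ab1 (0.38, 0.0816) kept their direction and lost the call. The class was made of 2 clusters in each region: in striatum 2087 cells led by Grin2c and Htra1 (19.9 CPM of Hspa1a, 43.3 of Dnajb1, 224 of Hsp90aa1 and 543 of Hsp90ab1) and 853 cells led by Gfap and Thbs4 (122, 104, 735 and 1290 CPM), in cortex 2110 cells led by Mt2 and Gjb6 (43.4, 58.7, 210 and 516 CPM) and 906 cells led by Fgfr3 and Gja1 (40.7 CPM of Dnajb1, 165 of Hsp90aa1 and 493 of Hsp90ab1, with the lowest Hspa1a of the 4 clusters). For these 4 genes the high striatal values thus lay in the Gfap and Thbs4 cluster. Summed microglia markers in astrocytes ran from 147 to 2538 CPM over cortical pools and from 102 to 211 over striatal pools. The part of the clusters and of these markers in the difference was not tested.

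In GABAergic interneurons 6 of the 10 were higher in striatum (17.5% of all genes tested there). Hspa1a had 25.8, 73.1, 74.2, 92.0, 43.4 and 104 CPM in cortex and 60.3, 130, 112, 202, 157 and 159 CPM in striatum (1.16, SE 0.17, edgeR adjusted p = 2.86e-05), with overlap only through the class A control of striatum. Hspa1b (0.91), Hspa5 (0.46), Dnajb1 (0.41), Hspa8 (0.39) and Hsph1 (0.36) were also called. Without the barcode class as a term Hspa1a and Dnajb1 kept the call and the other 4 lost it at nearly the same size: Hspa8 0.40 (edgeR adjusted p = 0.0503), Hsph1 0.35 (0.260), Hspa5 0.47 (0.344) and Hspa1b 0.85 (0.345). Summed spiny projection neuron markers in these cells were at 331 to 508 CPM in cortex and 565 to 958 CPM in striatum. The class was made of different clusters in each region. In striatum these were led by Sst, Npy and Nos1 (154 CPM of Hspa1a), by Pthlh, Cox6a2, Kit and Pvalb (64.5 CPM) and by Trh and Th (217 CPM). In cortex 5 of the 6 clusters ran from 34.2 CPM (Cxcl14 and Reln) to 74.0 CPM (Yjefn3 and Cnr1), and the one led by Npy, Tnnt1 and Ndnf lay between these and 154 CPM. The cortical cluster led by Pvalb and Sst had 72.4 CPM, so the striatal cluster with Pvalb among its leading genes was not above it. In contrast the cortical cluster led by Crhbp, Nos1 and Sst had 70.1 CPM, below the 154 CPM of the striatal cluster led by Sst, Npy and Nos1. The part of the markers and of the clusters in the difference was not tested.

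In macrophage-like cells 6 of the 10 were lower in striatum (2.32% of all genes tested there). Hspa1a had 2755, 3704, 6190, 6066, 2420 and 4648 CPM in cortex and 694, 2834, 888, 2667, 943 and 1706 CPM in striatum (-1.44, SE 0.23, edgeR adjusted p = 4.73e-04), with striatal values overlapping only the lowest cortical pools. Dnajb1 had 603, 275, 995, 714, 462 and 547 CPM in cortex and 75.4, 87.9, 296, 195, 363 and 187 CPM in striatum (-1.59, SE 0.24, edgeR adjusted p = 2.42e-04). Hspa8 had 1847 to 2471 CPM in cortical and 807 to 1642 CPM in striatal pools (-0.70, SE 0.16, edgeR adjusted p = 0.0119), the only one of the 6 without overlap, and lost the call without late replicate 1 of striatum (-0.62, edgeR adjusted p = 0.0523). Hspa1b (-1.61), Hsph1 (-1.24) and Hsp90aa1 (-0.98) were the others. Hsph1 lost the call without late replicate 2 of cortex (-1.05, edgeR adjusted p = 0.0705), and without the barcode class only Hspa1a and Dnajb1 of the 6 kept the call. The other 4 then stood at -0.95 for Hsp90aa1 (edgeR adjusted p = 0.0522), -0.68 for Hspa8 (0.0803), -1.15 for Hsph1 (0.227) and -1.32 for Hspa1b (0.349).

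**Figure D4:**
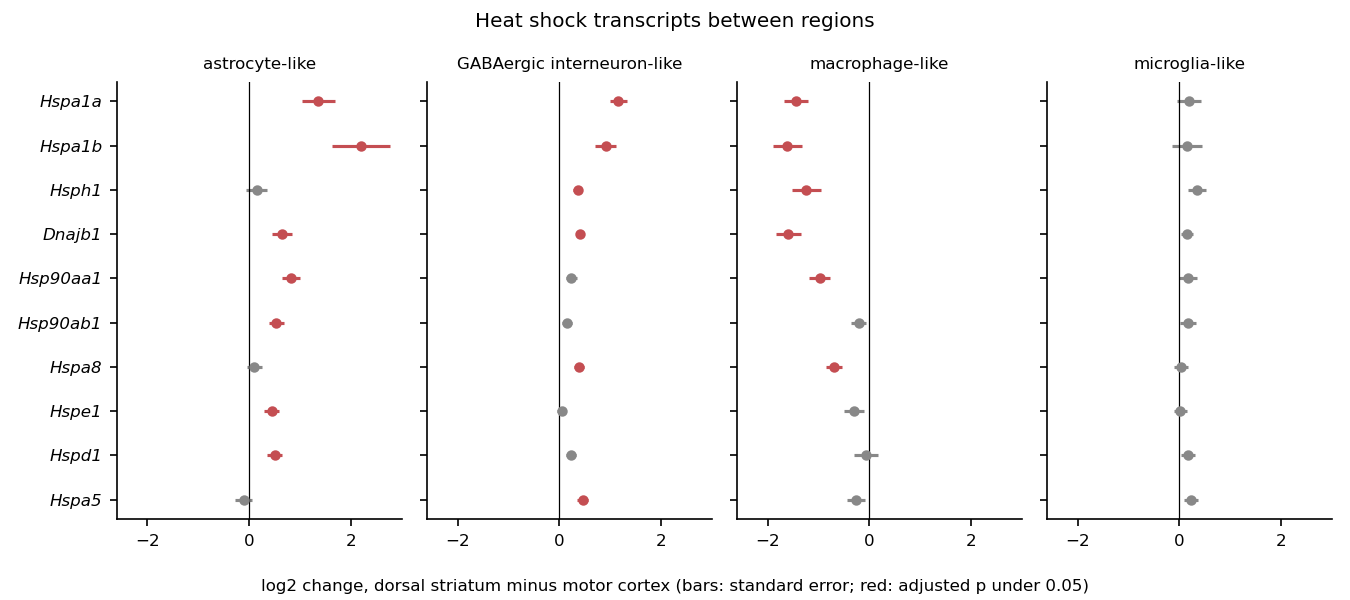
Log2 change, striatum less cortex, with its standard error for the 10 genes in astrocyte-like, GABAergic interneuron-like, macrophage-like and microglia-like cells, with red points for an edgeR adjusted p under 0.05. In astrocytes 7 points are called above 0, in GABAergic interneurons 6 are called above 0, 6 are called below 0 in macrophage-like cells, and none in microglia-like cells.

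The macrophage-like class held few striatal cells, 32 in the smallest pool. Its microglia markers summed to 14705 to 18151 CPM in cortex and 15048 to 20464 in striatum, above its own macrophage markers (10106 to 13916 and 8507 to 11063 CPM), so these cells carried both sets of markers. Spiny projection neuron markers were at 176 to 282 CPM in cortical and 274 to 1285 in striatal pools, and their part in the difference was not tested. Pools of both regions shared a flow cell in early replicate 2 and late replicate 2, and the directions held there in macrophage-like cells and GABAergic interneurons. Within these pairs Hspa1a was 6066 in cortex against 2667 CPM in striatum and 4648 against 1706 in macrophage-like cells, and 92.0 against 202 and 104 against 159 in GABAergic interneurons. In astrocytes the early pair rested on 1 library: Hspa1a was at 201 CPM (94 UMIs) contralaterally and 28.8 CPM (14 UMIs) ipsilaterally in striatum, against 16.3 and 24.1 CPM in cortex.

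The third comparison was between the hemispheres of trained mice, paired within pools. In cortex 3 of 96 tests were called (0.0677% over all genes), 8 had an unadjusted p under 0.05 (4.83%), and DESeq2 called 1. Hspa1a in microglia-like cells had 1540 CPM contralateral to the trained limb and 1676 ipsilateral in early replicate 1, 1233 and 1788 in early replicate 2, 421 and 748 in late replicate 1, and 796 and 1458 in late replicate 2. It was lower contralaterally in 4 of 4 pools, by a log2 change of -0.58 (SE 0.08, edgeR adjusted p = 6.32e-04), and so was Hspa1b (-0.59, SE 0.09, edgeR adjusted p = 0.00300), where 0.0574% of all genes were called lower. Without late replicate 1 both lost the call, at -0.50 and -0.52 (edgeR adjusted p = 0.169 for each), and with stricter cell filters so did both, at -0.41 (edgeR adjusted p = 1.000) and -0.51 (0.834). Hspa1a was not called by DESeq2 (-0.60, adjusted p = 1.000), nor Hspa1b with doublets kept (-0.61, edgeR adjusted p = 0.0608).

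**Figure D5:**
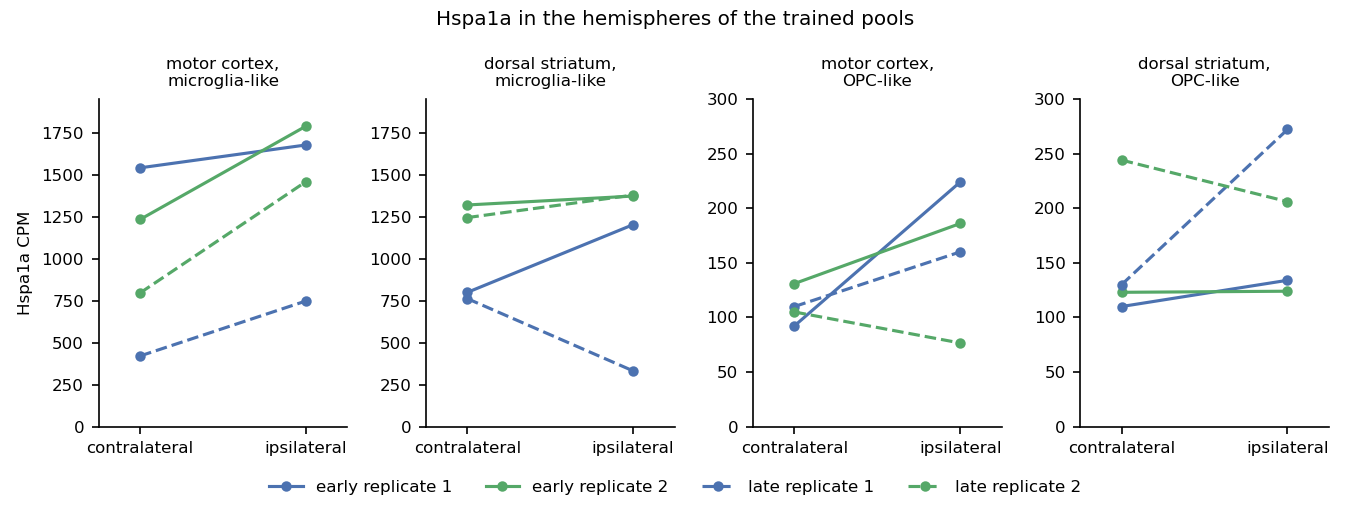
Hspa1a CPM in the contralateral and ipsilateral library of each trained pool, in microglia-like and OPC-like cells of both regions, with solid lines for early and dashed lines for late pools. In cortical microglia-like cells all 4 lines rise to the ipsilateral side, and in striatal microglia-like cells 1 of the 4 falls.

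In cortical OPC-like cells Hspa1a was 92.3 CPM contralaterally and 224 ipsilaterally in early replicate 1, 131 and 186 in early replicate 2, 110 and 160 in late replicate 1, and 105 and 76.6 in late replicate 2. It was lower contralaterally in 3 of 4 pools (-0.60, SE 0.09, edgeR adjusted p = 1.21e-06), where 0.0277% of all genes were called lower. The pools differed more than this SE gives, with late replicate 2 in the other direction, so the p-value understates their spread. The call was lost without early replicate 1 (-0.31, edgeR adjusted p = 0.823), with DESeq2 (-0.46, adjusted p = 1.000), with stricter cell filters (-0.55, edgeR adjusted p = 0.393) and with stage and barcode class in place of pool pairing (-0.55, 1.000). In microglia-like cells the last of these also ended both calls (-0.59 for Hspa1a and -0.65 for Hspa1b, edgeR adjusted p = 1.000 for each). Each side of a pool is a single library, so side and library cannot be told apart. Left and right libraries of untrained mice also differed. Hspa1a in OPC-like cells was at 138 and 58.0 CPM in control replicate 1 (19 and 16 UMIs) and 232 and 192 in control replicate 2. Microglia-like cells had 151 and 254 CPM in control replicate 1, and 1042 and 830 in control replicate 2. In microglia-like cells, summed macrophage markers were at 105 to 222 CPM contralaterally and 147 to 318 ipsilaterally, and their part in the difference was not tested.

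In striatum 0 of 99 hemisphere tests were called (0.0170% over all genes), 9 had an unadjusted p under 0.05 (3.80%), and DESeq2 called 0. Striatal microglia-like cells had 799 and 1202 CPM of Hspa1a contralaterally and ipsilaterally in early replicate 1, 1319 and 1372 in early replicate 2, 762 and 332 in late replicate 1, and 1244 and 1378 in late replicate 2. Late replicate 1 went against the other 3 pools.

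Whether Dnajb1 was found in the same cells as Hspa1a was asked in 4 classes with at least 20 cells of either kind in every pool, at 1000 UMIs per cell, with an exact two-sided permutation of signs over pools. In smooth muscle-like cells Dnajb1 was found in 19.0% of cells with Hspa1a and 8.39% of cells without it, a difference of 10.6 ± 6.35 points (higher in 11 of 12 pools, exact p = 0.00146, adjusted over 4 classes 0.00586). The difference was 2.18 ± 2.07 points in microglia-like cells (10 of 12 pools, exact p = 0.00586, adjusted 0.0117) and 3.68 ± 1.69 points in spiny projection neurons (6 of 6 pools, exact p = 0.0312, the smallest possible, adjusted 0.0417). In glutamatergic neurons it was 2.33 ± 5.65 points (4 of 6 pools, exact adjusted p = 0.438). Other settings left other classes with enough cells. With predicted doublets kept 0 of 5 classes passed, with 2 at an unadjusted p under 0.05; smooth muscle-like cells were not among them, microglia-like cells were at 1.45 points (exact adjusted p = 0.0884) and spiny projection neurons at 4.57 (0.0781). At 2000 UMIs per cell neither smooth muscle-like nor microglia-like cells could be tested, spiny projection neurons were at 5.50 points (exact adjusted p = 0.0938, where 6 pools allow an unadjusted p no lower than 0.0312), and the class that passed was GABAergic interneurons (4.64 points, 11 of 12 pools, exact adjusted p = 0.0220). Hspa1a and Hspa1b were found together in microglia-like cells 3.63 times as often as independence would give (median over 12 pools, 2.91 to 5.45, over 1 in 12 of 12). The ratio varied more in the other 4 classes: 5.16 in OPC-like cells (0 to 9.86, over 1 in 10 of 11 pools), 6.12 in spiny projection neurons (0 to 11.6, 5 of 6), 8.46 in astrocytes (0 to 68.3, 4 of 7) and 0.655 in glutamatergic neurons (0 to 5.05, 3 of 6).

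The wider stress and chaperone lists gave few calls by stage, as did all genes. Over all classes and stage comparisons, 0 of 2337 cortical tests (0.0125% over all genes) and 1 of 2526 striatal tests (0.0383%) passed. At an unadjusted p under 0.05 there were 164 in cortex (3.18% over all genes) and 187 in striatum (6.17%). The share in the lists was thus above that over all genes, more so in cortex. From control to late in cortex there were 27 of 134 for the unfolded protein response and 24 of 141 for immediate early genes (4.00% over all genes). TRiC chaperonin had 12 of 87, small heat shock proteins 6 of 33 and J proteins 5 of 149. HSP90 and cochaperones had 4 of 128, HSP70 and HSP110 2 of 76 and heat shock factors 0 of 31. The striatal call was Dusp1, an immediate early phosphatase, in OPC-like cells from control to late (0.84, SE 0.17, edgeR adjusted p = 0.0396). Between hemispheres 0 of 649 passed in cortex (0.0677% over all genes), with 30 at an unadjusted p under 0.05 (4.83%). In striatum 1 of 680 passed (0.0170%), the small heat shock gene Cryab in GABAergic interneurons (-1.44). There 27 had an unadjusted p under 0.05 (3.80%). Between regions 50 of 637 were higher and 11 lower in striatum, together 9.58%, close to the 10.2% over all genes.

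The regional calls by list are given as counts, to be read beside the 10.2% called over all genes and classes. Immediate early genes gave 19 higher and 4 lower of 115, with Fos, the best known of them, higher in striatum in 9 of 9 classes, from 1.03 in microglia-like to 1.88 in macrophage-like cells. Cortical mice carried the Fos-CreER driver and striatal mice did not, so for Fos itself region and driver cannot be told apart. Fos was one of 2 listed genes called in OPC-like cells (1.26, SE 0.17, edgeR adjusted p = 2.80e-05), the other being Nr4a1 (-0.57, SE 0.15, edgeR adjusted p = 0.0428). Subunits of the TRiC chaperonin, which folds actin and tubulin, gave 9 higher and 0 lower of 72, and unfolded protein response genes 8 and 2 of 112. HSP90 and its cochaperones gave 6 and 1 of 104, led by Bag3, a heat shock-inducible HSP70 cochaperone, in GABAergic interneurons (2.14, SE 0.24, edgeR adjusted p = 1.66e-06). Other HSP70 and HSP110 genes gave 5 and 1 of 60, J proteins 2 and 0 of 125, small heat shock proteins 1 and 3 of 26 and the heat shock factors 0 of 23, with 2 at an unadjusted p under 0.05.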

How the data were processed

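Per the submitters' processing notes, reads were processed with Cell Ranger 3.1.0 on GRCm38 (mm10), whereas the matrix headers name software 3.0.2. The authors deposited raw UMI counts per gene and barcode, 1 matrix per library. Barcodes needed 500 or more genes, 1000 or more UMIs and a mitochondrial share no higher than 20%, and the barcodes with the highest Scrublet scores (0.8% per 1000 barcodes) were removed as doublets, leaving 98612 of 103715. Cells of a region were clustered together on 2000 variable genes and 40 principal components with the Leiden method (scanpy 1.11.5, leidenalg 0.10.2), without the 10 genes. A cluster was named from at least 3 markers, by rules tuned on the clusters and not on the 10 genes; the rest stayed unnamed.

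Summed UMIs of each class in each pool were tested with edgeR 4.0.16 (quasi-likelihood, TMM, filterByExpr), with stage and barcode class as terms, paired by pool for hemispheres. P-values were adjusted by Benjamini-Hochberg over all genes within a class and comparison, and called at 0.05. Levels are log2 CPM after adding 1 count. The scripts were checked on simulated data. DESeq2 1.42.0, no expression filter, stricter cell filters (1000 genes, 2000 UMIs, 10% mitochondrial), doublets kept, no barcode class, a replicate block and leaving out each pool were the alternatives. The 10 genes and the marker and chaperone lists were chosen with earlier results of these data known. Genes outside the 10 are named by likeness, from these lists or as called.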

Additional observations from a re-analysis of the deposited data

Results flagged for a closer look

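In groups of 6 pools, 4 of the 230 levels (10 genes in 23 class and region combinations) had 1 pool far from the other 5 by Dixon's criterion, where chance alone gives about 1 in 20. All 4 were class A pools. Dnajb1 in cortical pericyte-like cells was 9.16 log2 CPM in late replicate 1, against 7.90 to 8.16 in the others, from 327 UMIs in 388 cells. Hspa1a in striatal committed precursors was 5.19 in control replicate 1, against 7.67 to 8.32, from 6 UMIs in 61 cells. Hsp90aa1 in striatal endothelial-like cells was 8.29 in late replicate 1, against 9.58 to 10.27, from 43 UMIs in 96 cells. Hspe1 in striatal smooth muscle-like cells was 8.12 in late replicate 1, against 7.24 to 7.51, from 61 UMIs in 166 cells.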

How the results depend on the processing

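The stage calls, 0 in cortex and 2 in striatum, became 6 and 12 without an expression filter, 1 and 0 with doublets kept, and ranged from 0 to 11 and from 3 to 11 when a pool was left out. In striatum they were 1 with DESeq2, 1 with stricter cell filters (210 of 360 tests) and 0 without the barcode class. Hspa1a in striatal OPC-like cells, at 1.37, was 1.38 without the barcode class (edgeR adjusted p = 1.000), 0.94 with doublets kept (0.303) and 1.30 to 1.46 with a pool left out, losing the call without early replicate 1 (0.191) or early replicate 2 (0.284). Replicate numbers follow accession order and pair nothing by design; with them as a replicate block the stage calls were 1 in cortex and 0 in striatum, and that Hspa1a change was 1.38 (0.871). The 19 regional calls became 7 without the barcode class, 6 with stricter filters (where 3 of 9 classes had enough cells, classes with 6 calls before too) and 16 to 20 with a pool left out. The 3 cortical hemisphere calls became 1 with DESeq2, 0 with stage and barcode class in place of pool pairing, 0 with stricter filters and 1 to 4 with a pool left out; the striatal count was 0 to 1. Dnajb1 was found more often with Hspa1a in 3 classes, in 1 at 2000 UMIs (a class with too few cells before) and in 0 with doublets kept, over different classes tested. Directions turned for Hspa1b in astrocytes between regions (-0.01, doublets kept) and for Dnajb1 in glutamatergic neurons (-0.312 points at 2000 UMIs). The cause was not tested. Of the 230 levels, 39 moved by more than 1 SD under TMM scaling (by -0.39 to 0.72), 5 with doublets kept and 9 under stricter filters. The largest shifts were 1.52 for Hspa1b with doublets kept and -1.31 for Hspa1a under stricter filters.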

Other observations

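Clusters that no marker rule named also differed in Hspa1a. Each region had 2 unnamed clusters led by haemoglobin genes, and in each region 1 of them was high and the other low: 1784 and 145 CPM of Hspa1a in striatum (40 and 38 cells), and 1795 and 128 CPM in cortex (67 and 101 cells). Both high clusters also carried 9 of 9 endothelial markers. The low ones carried 10 of 12 spiny projection neuron markers in striatum and 8 of 10 microglia markers in cortex. The part of these markers in the difference was not tested. An unnamed striatal cluster of 59 cells, with Gkn3 and Lrrc32 among its leading genes, had 3153 CPM of Hspa1a. It carried 9 of 9 endothelial and 6 of 7 vascular smooth muscle markers. Microglia-like cells fell into 3 striatal clusters at 738, 997 and 1389 CPM of Hspa1a and 4 cortical clusters at 503, 677, 1154 and 1423 CPM, and the lowest striatal and the 2 lowest cortical clusters held mostly class A cells. These clusters were singled out after their values were seen, and cells of a cluster are not replicates.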
